A study of Mus musculus with 50 samples.

Results

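Fatty acid binding proteins and long-chain acyl-CoA synthetases were described in mouse hippocampus, in wild-type (WT) animals and in transgenic (TG) animals. The set held 3 binding proteins (Fabp7, Fabp5 and Fabp3) and 5 synthetases (Acsl1, Acsl3, Acsl4, Acsl5 and Acsl6). It was chosen from known results of these same arrays, by gene symbol, so the TG over WT values of its members are given as a description and not as a test. On the Agilent arrays, which carry 60-base oligonucleotides, the 8 genes were measured by 11 of 41174 probes and were 8 of 17615 named genes. All 11 probes were named through the RefSeq accession in the files.

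The WT mice were male C57/BL6j, and the TG mice were males of the same background that over-expressed DCLK-short, the δC splice variant of doublecortin-like kinase, which is constitutively active. All mice were housed singly for 7 days, both hippocampi of each were taken, and neither age nor the promoter of the transgene is given in the sources used here. RNA of 5 WT mice (numbered 1, 3, 4, 5 and 6) and 5 TG mice (1 to 5) was amplified, labelled with Cy3 or Cy5 and hybridized in pairs of 1 WT and 1 TG mouse to 10 two-color arrays. Each mouse was on 2 arrays, once in each dye, with a different partner each time, so the 10 log ratios come from 5 mice per genotype and are not independent.

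Intracellular fatty acid binding proteins are small carriers that hold long-chain fatty acids in the cytosol and hand them to membranes, enzymes and nuclear receptors. Long-chain acyl-CoA synthetases activate fatty acids by joining them to coenzyme A, the step that commits them to oxidation, membrane lipids or storage. In brain, Fabp7 is known from radial glia and astrocytes, Fabp5 from glia and neurons, and Fabp3 mainly from neurons.

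The RefSeq table (GRCm38.p6) held promoters for 7 of the 8 genes with 10 starts, and the 250 bases before the start are shown for the genes that carried the largest TG over WT values, namely Fabp7, Fabp3, Acsl1 (2 starts) and Acsl3. Capitals mark any of 4 motifs, searched on both strands. The letters were TATAAA for the TATA box and GGGCGG for the GC box. The nuclear receptor motif was AGGTCA, which is a part of a receptor site and not a whole one. The CCAAT box was searched as its name is spelled. In Acsl3 a CCAAT box touches a GC box.
Fabp7, chr10:57784673-57784922, plus strand: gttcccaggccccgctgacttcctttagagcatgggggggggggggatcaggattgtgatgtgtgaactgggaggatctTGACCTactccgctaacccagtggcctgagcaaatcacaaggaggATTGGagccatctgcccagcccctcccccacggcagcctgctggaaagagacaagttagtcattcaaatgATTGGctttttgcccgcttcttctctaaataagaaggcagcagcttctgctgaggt
Fabp3, chr4:130308488-130308737, plus strand: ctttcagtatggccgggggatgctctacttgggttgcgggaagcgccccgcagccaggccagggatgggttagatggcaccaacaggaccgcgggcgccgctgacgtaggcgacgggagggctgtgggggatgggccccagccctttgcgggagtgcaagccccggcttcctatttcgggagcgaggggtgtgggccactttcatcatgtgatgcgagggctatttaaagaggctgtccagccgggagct
Acsl1, first start, chr8:46470787-46471036, plus strand: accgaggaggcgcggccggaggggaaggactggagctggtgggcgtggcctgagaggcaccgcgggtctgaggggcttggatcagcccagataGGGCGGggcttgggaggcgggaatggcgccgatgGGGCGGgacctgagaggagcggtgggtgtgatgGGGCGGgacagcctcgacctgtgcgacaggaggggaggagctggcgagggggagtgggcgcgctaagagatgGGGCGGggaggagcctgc
Acsl1, second start, chr8:46490716-46490965, plus strand: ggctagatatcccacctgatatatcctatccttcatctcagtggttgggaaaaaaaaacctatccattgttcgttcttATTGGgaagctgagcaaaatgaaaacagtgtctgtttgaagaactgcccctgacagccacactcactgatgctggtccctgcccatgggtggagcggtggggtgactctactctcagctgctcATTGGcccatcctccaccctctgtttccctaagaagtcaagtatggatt
Acsl3, chr1:78657575-78657824, plus strand: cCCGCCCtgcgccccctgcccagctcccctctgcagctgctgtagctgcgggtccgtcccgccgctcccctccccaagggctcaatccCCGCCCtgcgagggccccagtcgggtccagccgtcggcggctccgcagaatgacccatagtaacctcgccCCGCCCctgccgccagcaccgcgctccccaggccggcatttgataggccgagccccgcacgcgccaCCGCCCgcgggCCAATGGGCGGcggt

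The 2 binding protein promoters held different letters. Fabp7 had 2 CCAAT boxes and 1 nuclear receptor motif in a window of 54.8% G and C with 4 CpG pairs. Fabp3 held none of the 4 motifs in a window of 64.8% G and C with 17 CpG pairs. The first Acsl1 start held 4 GC boxes (72.0% G and C) and its second start 2 CCAAT boxes (48.4%). Acsl3 held 5 GC boxes and 1 CCAAT box (75.6%). The background was 32851 promoters of the same length. Of these, 12.4% held a TATA box, 33.8% a CCAAT box, 32.7% a GC box and 14.0% a nuclear receptor motif. These are matches of letters and not binding sites.

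The direction of every ratio below is the one given by the array labels, and it carries a doubt. The study gives the opposite sign for Fabp7 and for Acsl1, on these arrays and also by measurements that do not use these array labels. Where a gene is called higher or lower in TG below, the words refer to the labels alone. The labels of the 5 arrays with WT in Cy3 can be exchanged, in order, with those of the 5 with TG in Cy3. This turns the sign of every ratio and keeps its size. It also gives the channels to other mice, so levels per mouse change, as do the arrays that belong to a mouse. In these files the 2 channels of a mouse, as deviations from the mean of their dye over present probes, correlated between -0.21 and 0.29 for 9 mice and at 0.82 for TG4. After the exchange the value of 0.82 belonged to WT5, and the other 9 mice lay between -0.22 and 0.50, with TG3 at 0.50. TG4 is therefore used below as the name of a mouse as labelled.

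The arrays of TG4 (WT1/TG4 and WT3/TG4) stood apart. The SD of the log2 ratios over all probes was 0.321 and 0.384 on them and 0.138 to 0.226 on the other 8 arrays. They held 870 and 1339 probes beyond 1 on the log2 scale, against 14 to 227 on the others, and correlated with each other at 0.81. Of 41174 probes, 33793 (82.1%) exceeded the 95th percentile of the negative controls in both channels of all arrays, including all 11 member probes. The 10 hippocampal and 9 measured neuronal markers of the fixed lists were also present. That percentile was 62 to 80 in Cy3 and 40 to 46 in Cy5. The lowest median signals of member probes were those of Acsl4 probe A_51_P268154 (94 in Cy3 and 70 in Cy5) and Fabp5 (114 and 99). With Acsl1 probe A_51_P463452 the signal of TG4 was 84 in Cy3 and 62 in Cy5. The 4 Dclk1 probes had log2 ratios of -0.08 to -0.06, and none passed an FDR of 0.1 in limma. Where they lie relative to the transgene was not examined.

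Fabp7, the brain-type binding protein, had the largest ratio of the set and was higher in TG, as labelled, on 10 of 10 arrays. Its probe A_51_P290074 lies at chr10:58054330-58054389 (the genome build is not stated in the headers, here and below). The level per mouse is the mean of its Cy3 and Cy5 log2 values after normalization of intensities between arrays. It was 9.59, 9.37, 9.39, 9.43 and 9.71 in WT1, WT3, WT4, WT5 and WT6. It was 10.38, 10.32, 10.32, 10.35 and 10.10 in TG1 to TG5. The lowest TG mouse lay 0.39 above the highest WT mouse, and TG5 was the lowest of its group. With the exchanged labels the groups did not overlap either (10.03 to 10.44 in WT and 9.23 to 9.71 in TG). The log2 ratios ran from 0.15 on WT6/TG5 over a median of 0.86 to 1.22 on WT3/TG5. Their mean was 0.80 ± 0.093 (SE, n = 10 arrays), a 1.74-fold difference. In RNA of whole hippocampus, more cells of a type and more RNA per cell cannot be told apart.

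Fabp3, the heart-type binding protein, was also higher in TG on 10 of 10 arrays, as labelled, but its WT mice were spread widely. Its probe A_51_P167535 lies at chr4:129342478-129342537. The log2 level was 9.79, 9.23, 9.21, 9.50 and 9.79 in WT1, WT3, WT4, WT5 and WT6. It was 9.99, 9.98, 10.01, 9.90 and 9.98 in TG1 to TG5. The groups did not overlap, with a gap of 0.10 on the log2 scale. With the exchanged labels they did not overlap either, but lay closer (9.90 to 10.01 in WT and 9.13 to 9.87 in TG). As labelled, the SD was 0.284 among WT and 0.0429 among TG mice. The log2 ratios ran from 0.04 on WT6/TG1 over a median of 0.48 to 0.86 on WT3/TG4, with a mean of 0.46 ± 0.094 (SE, n = 10 arrays), a 1.38-fold difference. The 5 arrays with the smallest ratios were those of WT1 and WT6 and WT5/TG3.

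Fabp5, the epidermal-type binding protein, overlapped between the groups. Its probe A_51_P387764 lies at chr3:10015650-10015709. The log2 level was 6.74, 7.22, 6.75, 6.59 and 6.74 in WT1, WT3, WT4, WT5 and WT6 and 6.82, 6.82, 6.79, 6.80 and 7.45 in TG1 to TG5. WT3 and TG5 were high only on the array they shared, WT3/TG5, with levels of 7.91 in Cy3 and 8.24 in Cy5. On their other arrays WT3 had 6.54 and TG5 6.65. The log2 ratios ran from -0.18 to 0.47 with a mean of 0.13 ± 0.065 (SE, n = 10 arrays) and were positive on 7 arrays.

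**Figure D1:**
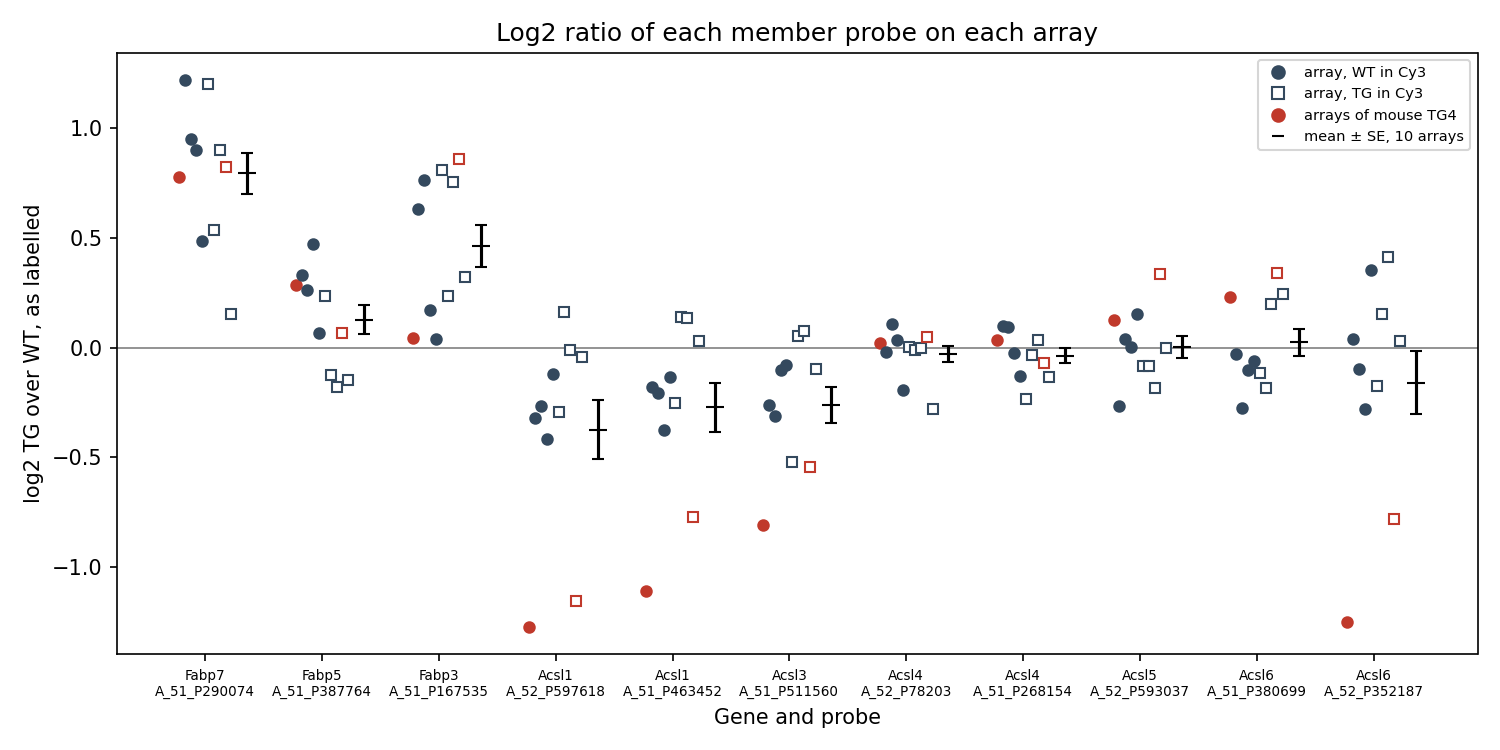
Log2 ratio of TG over WT as labelled (vertical axis) for each of the 11 member probes (horizontal axis) on 10 arrays, with the mean and SE. Filled circles are arrays with WT in Cy3, open squares arrays with TG in Cy3, and red marks the arrays of TG4. All Fabp7 and Fabp3 points lie above 0, and the lowest points of Acsl1, Acsl3 and the second Acsl6 probe are those of TG4.

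Of the 11 member probes, 2 (Fabp7 and Fabp3) passed an FDR of 0.1 in limma, both higher in TG as labelled and none lower. Over all probes 7.41% passed in either direction, 3.66% higher and 3.76% lower, or 1505 and 1548 probes. With median centring in place of loess 1232 were higher and 103 lower, and the ratios of Fabp7 and Fabp3 were 0.90 and 0.57. Acsl3 was then at -0.15, Acsl1 at -0.31 and Fabp5 at 0.14. The groups did not overlap in level per mouse for 2 member probes, the same pair, against 2.08% of all probes. Since this contrast was known when the set was made, nothing is read from these counts. The Fabp7 call was kept without any single mouse, with log2 ratios of 0.73 to 0.91. The Fabp3 call was lost without WT3 (0.39), without WT4 (0.39) and without TG5 (0.46), and the count of member probes called was then 1. These fits still took arrays that share mice as independent. With 1 mean per WT mouse in place of single arrays, both genes still passed the FDR of 0.1. Fabp3 then passed only just, and Fabp7 lay nearer to the limit than in the main fit. With 1 mean per TG mouse both lay further below it.

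**Figure D2:**
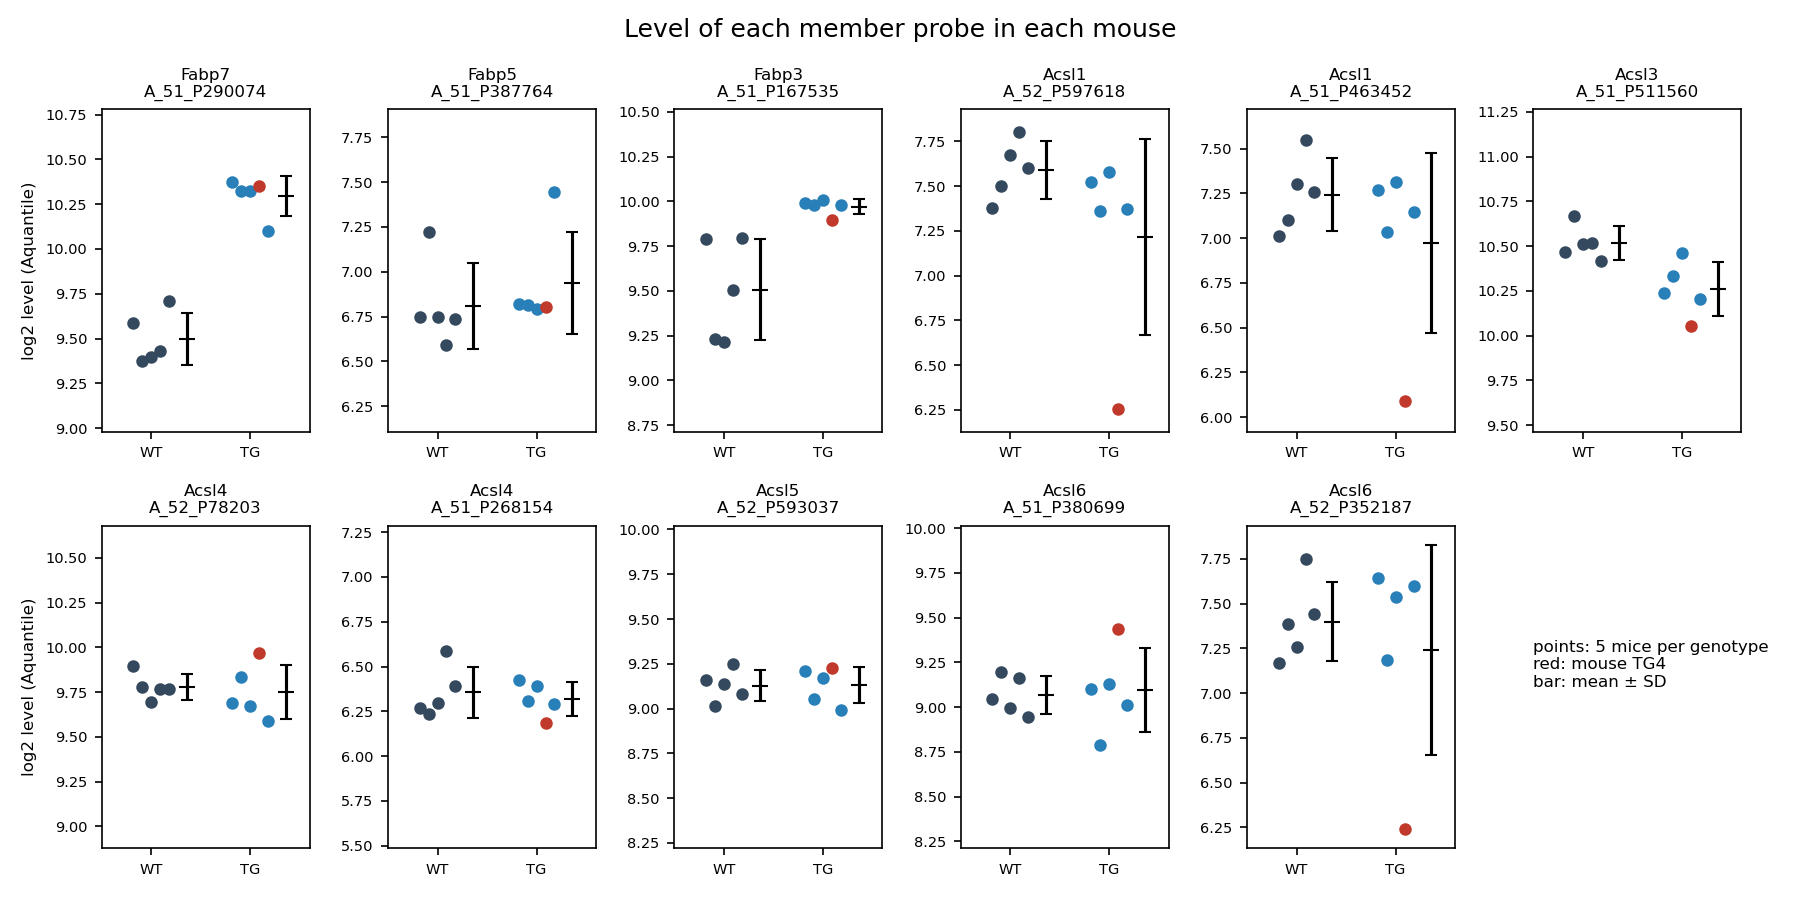
Log2 level of each member probe in each of 5 WT and 5 TG mice, with mean and SD, where each panel has its own vertical axis and levels are not comparable between probes. TG4 is red. WT and TG mice separate for Fabp7 and Fabp3, and TG4 lies far below all other mice for both Acsl1 probes and 1 Acsl6 probe.

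Acsl1, a synthetase that supplies acyl-CoA for oxidation and triglyceride synthesis, was low in 1 mouse. Its probes A_52_P597618 and A_51_P463452 lie at chr8:45481506-45481565 and chr8:45481198-45481257. With the first probe, the log2 level was 7.38, 7.50, 7.67, 7.80 and 7.60 in WT1, WT3, WT4, WT5 and WT6. It was 7.52, 7.36, 7.58, 6.25 and 7.37 in TG1 to TG5. TG4 lay 1.20 below the mean of the other 4 TG mice on the log2 scale. With the second probe TG4 had 6.09 and the other mice 7.01 to 7.55. The groups overlapped with both probes. The gene's mean log2 ratio was -0.32 ± 0.12 (SE, n = 10 arrays), negative on 8 arrays. Without TG4 it was -0.13.

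Acsl3, found on lipid droplets and in the endoplasmic reticulum, was also lowest in TG4, but by less. TG4 lay 0.25 below the mean of the other TG mice on the log2 scale. Its probe A_51_P511560 lies at chr1:79040210-79040269. The log2 level was 10.47, 10.67, 10.51, 10.52 and 10.42 in WT1, WT3, WT4, WT5 and WT6 and 10.24, 10.33, 10.46, 10.06 and 10.20 in TG1 to TG5. The groups overlapped only through TG3 and WT6, by 0.04. With the exchanged labels they did not overlap (10.06 to 10.40 in WT and 10.44 to 10.73 in TG). The mean log2 ratio was -0.26 ± 0.083 (SE, n = 10 arrays), negative on 8 arrays, and without TG4 it was -0.16.

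Acsl6, the synthetase enriched in brain and known for handling docosahexaenoic acid, gave 2 different pictures. Probe A_51_P380699 lies at chr11:54113991-54114050 and probe A_52_P352187 at chr11:54079974-54080033. On WT1/TG4 and WT3/TG4 the first had log2 ratios of 0.23 and 0.34, and the second -1.25 and -0.78. Over the 10 arrays the 2 probes correlated at -0.42 and had the same sign on 5. The second probe's level was 6.24 in TG4, against 7.17 to 7.75 in WT and no less than 7.18 in the other TG mice. Averaged over both probes, the log2 ratio was -0.07 ± 0.067 (SE, n = 10 arrays), and 0.0074 without TG4.

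Acsl4, which prefers arachidonic acid, and Acsl5, a synthetase of mitochondria and endoplasmic reticulum, lay near 0. Acsl4 was read by A_52_P78203 (chrX:135758103-135758162) and A_51_P268154 (chrX:135760699-135760758), with mean log2 ratios of -0.03 ± 0.037 and -0.04 ± 0.034 (SE, n = 10 arrays). The signal of the second probe lay near the negative controls. Acsl5 was read by A_52_P593037, placed at chr19:54874494-54875082, with 0.0031 ± 0.052. None of these probes exceeded 0.34 in size on any array, and the groups overlapped in level per mouse.

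**Figure D3:**
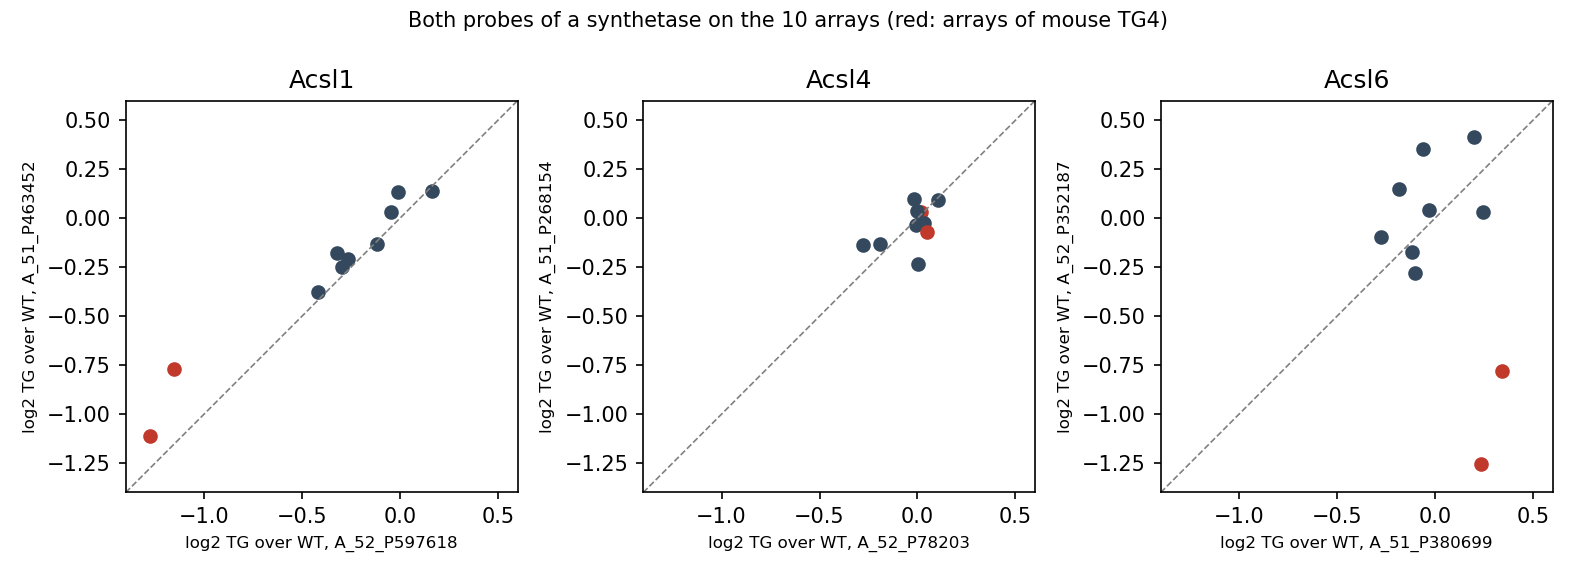
Log2 ratio of TG over WT as labelled for both probes of Acsl1, Acsl4 and Acsl6, 1 point per array (10 arrays), with TG4 in red and the dashed line marking equal values. The Acsl1 points follow the line (r = 0.98), while the TG4 points of Acsl6 fall far below it.

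The ratios of the members fell into groups over the 10 arrays. The values are Pearson correlations of gene-level log2 ratios with each dye orientation centred, and they are a description because arrays share mice and partners. Fabp7 went with Fabp3 (0.75) and Fabp5 (0.68). Acsl1 went with Acsl3 (0.88) and Acsl6 (0.81), and Acsl3 with Acsl6 (0.84). Acsl1, Acsl3 and the mean of the 2 Acsl6 probes were low on the TG4 arrays. Of the Acsl6 probes only A_52_P352187 was low there (-1.25 and -0.78), while A_51_P380699 had 0.23 and 0.34. Fabp7 had -0.17 with Acsl1. Among 15902 present genes, those most like Fabp7 were Pdzd11 (0.98), Olfr898 (0.97), Ifitm3 (0.96), Mrps6 (0.95) and Ly6a (0.95). Those most like Acsl1 were Zmynd11, D830030K20Rik, Rragb, Paics and Mtmr2, from 0.99 to 1.00. For Fabp3, chosen after its values were seen, they were Snrnp70, Atp5g1, Rps10, Rps18 and Sod1, all at 0.99. Each of these lists holds the highest of 15902 correlations over 10 arrays. No background was computed for them, so no shared regulation is read from them.

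The dye effect was independent of the choice of members, since dye and genotype are balanced. It was tested with limma as Cy5 over Cy3 with the genotype in the model. Of all probes, 22.6% passed an FDR of 0.1, and 1 of 11 member probes did. That was Fabp5, with a log2 value of 0.16 ± 0.048 (SE, n = 10 arrays) and an FDR of 0.052. For Fabp7 and Fabp3 it was 0.07 ± 0.096 and -0.13 ± 0.091, with FDRs of 0.66 and 0.37.

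Other genes of the fatty acid pathway passed the test about as often as genes at large. The 7 lists held 161 genes, of which 153 were measured by 214 probes. Of these probes 7 were higher and 10 lower in TG as labelled, or 7.94%, near the 7.41% of all probes. At the gene level 6 rose and 9 fell as labelled, 15 of 153, where 8.21% of all genes and unnamed probes passed. The fit takes the 10 arrays as independent. The median log2 ratio of the listed genes was 0.0046, and that of all genes 0.0034.

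None of 12 other lipid binding proteins passed an FDR of 0.1 (8 positive, 4 negative). Fabp1, the liver-type member, had 0.36 ± 0.21 (SE, n = 10 arrays) with a highest array value of 1.97 and a median of 0.09. None of 17 measured genes of other synthetases and fatty acid transport passed either, though 1 of their 21 probes was higher past the FDR as labelled. Slc27a1, a fatty acid transport protein, had -0.14 ± 0.051. None of 14 PPAR, RXR and SREBP1 regulators passed, and Srebf1, a regulator of lipid synthesis, had -0.14 ± 0.058.

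Among 17 measured acyl-CoA binding proteins and thioesterases, 2 rose and 2 fell. Acbd6, an acyl-CoA binding protein, rose by 0.19 ± 0.036 (FDR 0.021) and Acot8, a peroxisomal thioesterase, by 0.22 ± 0.042 (FDR 0.026). Scp2, a sterol and fatty acid carrier, fell by 0.18 ± 0.038 (FDR 0.034), and Acbd5, a peroxisomal membrane protein, fell by 0.41 ± 0.10 (FDR 0.053). The first 3 had the same sign on 10 of 10 arrays, and Acbd5 on 9. The arrays of TG4 gave Acbd5 values of -0.90 and -1.15, the lowest of all, and without TG4 its ratio was -0.25.

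Of 35 genes of the carnitine shuttle and beta-oxidation, 2 rose and 5 fell, with a median of -0.04. Hsd17b4, a peroxisomal oxidation enzyme, fell by 0.14 ± 0.031 (FDR 0.040) on 10 of 10 arrays. Acadsb, an acyl-CoA dehydrogenase, fell by 0.21 ± 0.050 (FDR 0.043) and Hadhb, a trifunctional protein subunit, by 0.16 ± 0.040 (FDR 0.048). Etfb, an electron transfer flavoprotein subunit, rose by 0.31 ± 0.069 (FDR 0.040).

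Of 27 genes of synthesis, elongation and desaturation, 2 rose and 1 fell. Tecr, the last enzyme of the elongation cycle, rose by 0.27 ± 0.059 (FDR 0.035) and Hacd1, a dehydratase of that cycle, by 0.18 ± 0.040 (FDR 0.040). Scd2, the stearoyl-CoA desaturase of brain, fell by 0.23 ± 0.073 (FDR 0.097). At the probe level none of the 34 probes of this list was lower past the FDR, including that of Scd2. Of 31 measured genes of glycerolipid acylation and lipid droplets, only Mboat1, a lysophospholipid acyltransferase, passed, at -0.14 ± 0.031 (FDR 0.041). These FDRs are from limma over all genes, and errors are SE with n = 10 arrays.

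These calls depended on the mice and on the normalization. Without any 1 mouse, Acbd6 passed in 9 of 10 fits, Acot8 and Scp2 in 8, Tecr in 7, and Acbd5, Hsd17b4, Etfb, Acadsb and Hacd1 in 5. Hadhb passed in 3, Mboat1 in 4 and Scd2 in 1. The count of 17 probes fell to 0 without WT4, 2 without WT3, 5 without TG5, 6 without WT5, 7 without TG3 and 8 without TG1 or TG2. With median centring in place of loess it was 3, and the falls of Scp2 (-0.07), Hsd17b4 (-0.04), Hadhb (-0.06) and Scd2 (-0.08) shrank. Calls over all probes dropped as well, from 3053 to 282 without WT4 and to 1335 with median centring. With 1 mean per WT mouse in place of 10 arrays, Hsd17b4 (FDR 0.10), Etfb (0.12) and Hacd1 (0.13) were not past the threshold, and with 1 per TG mouse Acbd5 (0.19) and Scd2 (0.12) were not. Without TG1 or without WT5, the mice of its highest array, Fabp1 had a ratio of 0.23.

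**Figure D4:**
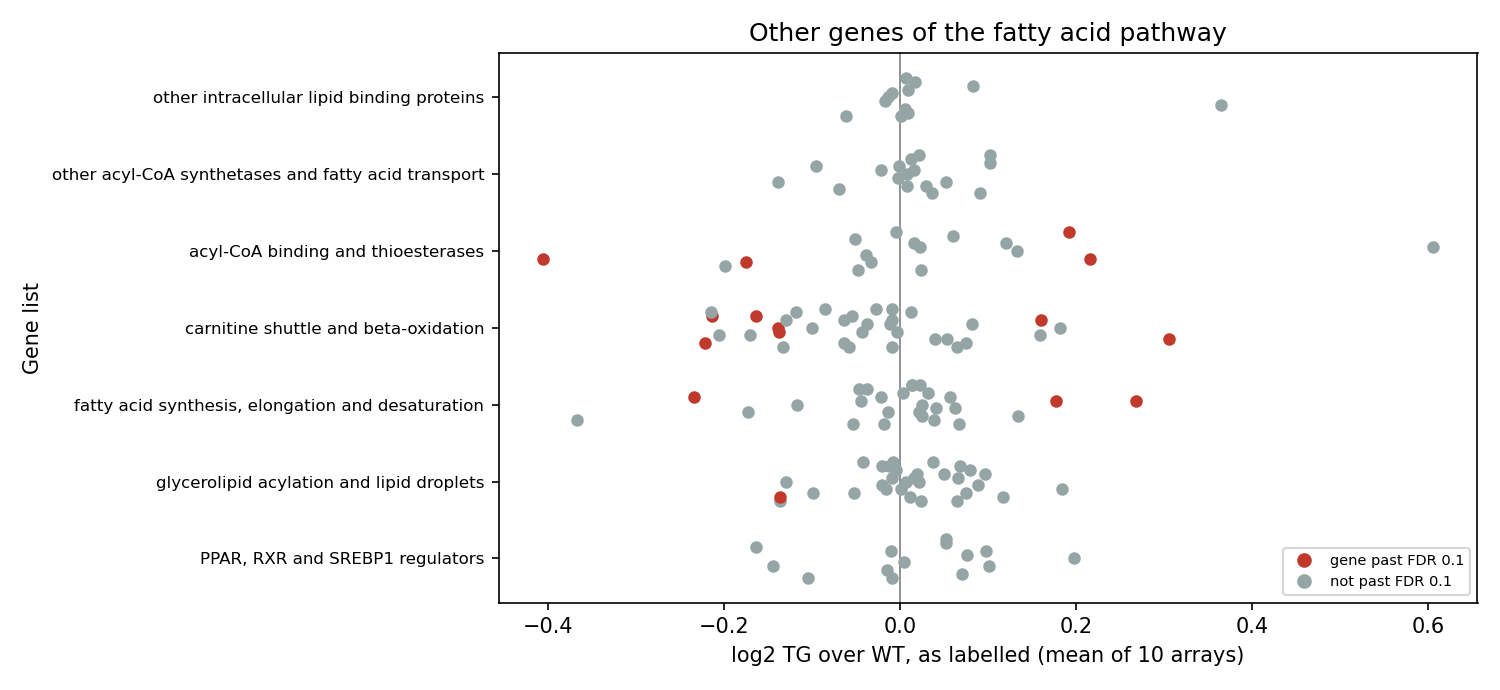
Gene-level log2 ratio of TG over WT as labelled (horizontal axis, mean of 10 arrays) for the 7 lists of other fatty acid genes, 1 point per gene, red where the FDR was 0.1 or less. The 15 red points lie on both sides of 0, and the first 2 lists and the last hold none.

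Astrocyte markers, listed because Fabp7 is known from these cells, were split. Of 14 genes 3 rose and none fell as labelled (5 of 23 probes), where 8.21% of all genes and 7.41% of all probes passed in either direction. The ratio was positive for 8 genes and negative for 6, with a median of 0.05 on the log2 scale. Ntsr2, an astrocyte receptor, rose by 0.23 ± 0.036 (FDR 0.013), Aldh1l1, a folate enzyme, by 0.23 ± 0.045 (FDR 0.025) and Aqp4, the water channel, by 0.30 ± 0.084 (FDR 0.067). Gjb6 and Fgfr3 had -0.21 ± 0.070 and -0.16 ± 0.050, and Gfap, the glial filament protein, had -0.15 ± 0.052, none past the threshold. The summed level of the present astrocyte probes was 30830 to 40283 in WT and 34695 to 41588 in TG mice, which overlap. Of 10 radial glia and progenitor markers only Tnc passed, at 0.12 ± 0.037 (FDR 0.092).

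Markers of other cells moved in both directions. Of 9 neuron markers, listed for Fabp3, 0 passed. Of 10 oligodendrocyte markers 1 fell and 4 were positive. That was Mbp, the myelin basic protein, which fell by 0.51 ± 0.15 (FDR 0.084), with -1.42 and -1.53 on the arrays of TG4 and a median of -0.25. Without TG4 it was -0.26 (FDR 0.051). Cnp and Cldn11 of the same list had 0.24 ± 0.083 and 0.17 ± 0.069. Of 9 endothelial and choroid plexus markers 2 fell and 8 were negative, with Cldn5 at -0.25 ± 0.056 (FDR 0.039) and Slco1a4 at -0.20 ± 0.049 (FDR 0.048). Of 10 microglia markers 6 were positive and 4 negative, with a median log2 ratio of 0.0098. P2ry12 fell by 0.29 ± 0.061 (FDR 0.033) and Itgam by 0.15 ± 0.045 (FDR 0.088), while Tmem119 rose by 0.13 ± 0.034 (FDR 0.057). Aif1 and Tyrobp had 0.28 ± 0.089 and 0.26 ± 0.14, neither past the threshold. Calb1 of the hippocampal list rose by 0.14 ± 0.033 (FDR 0.046).

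TG4 had the lowest summed level among TG mice for 5 of these lists. It lay below every WT mouse for oligodendrocyte markers (29440, with 34397 to 43848 in WT), neuron markers (50019, with 54484 to 61442) and endothelial and choroid plexus markers (2171, with 2630 to 3798). For astrocyte and microglia markers (34695 and 5191) it lay within the WT range, and for radial glia and hippocampal markers it was the highest TG mouse (4991 and 10677). Without any 1 mouse, Ntsr2 passed in 10 of 10 fits, Aldh1l1 in 9, P2ry12 in 7, Cldn5 in 5, Calb1 in 4, Aqp4, Mbp, Slco1a4 and Tmem119 in 2, and Tnc and Itgam in 0. Itgam was at -0.09 without TG4. With 1 mean per WT mouse Aqp4, Mbp and Tnc were not past the threshold (FDR 0.11, 0.13 and 0.11), nor with 1 per TG mouse (0.17, 0.26 and 0.17). With median centring in place of loess, Ntsr2 and Aldh1l1 passed (FDR 0.059 and 0.058). Aqp4 (FDR 0.13), Itgam (0.18), Calb1 (0.21), Tmem119 (0.29), P2ry12 (0.34), Mbp (0.40), Cldn5 (0.53), Slco1a4 (0.68) and Tnc (0.75) then did not. The part of these cells in the Fabp7, Fabp3 and Acsl1 values was not tested.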

How the data were processed

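Per the file headers, the authors scanned the arrays with Feature Extraction 8.5.1.1, which deposited mean and median pixel intensity per spot and dye without normalization, and a log10 ratio of Cy5 over Cy3 that it had corrected and normalized. Here, with R 4.3.3, and limma 3.58.1, mean intensities of 41534 spots went through a loess fit on each array with no correction for background, and spots of a probe were averaged. An intercept was fitted to 10 log2 ratios with empirical Bayes, and p-values were adjusted by Benjamini-Hochberg over 41174 probes (or genes). The limit was an FDR of 0.1, without a filter. Levels per mouse used Aquantile normalization. Accessions were named through RefSeq, which named 22072 probes. Descriptions named 2326 and 16776 stayed unnamed. Fits were tested on simulated ratios drawn independently for each array, so the sharing of mice between arrays was not simulated. Named list genes were those past the FDR with 1 sign on 10 arrays, or up to 4 per list by p. Members and lists were chosen with earlier results of these data known. Array number limits precision. The ABI table names no member (0 rows), Illumina columns name no mouse, and the other platforms were not analysed here.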

Additional observations from a re-analysis of the deposited data

Results flagged for a closer look

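Of 33 groups of member values (10 arrays, 5 WT or 5 TG mice per probe), 6 held a value whose gap to its neighbour exceeded Dixon's limit, where chance gives about 1 in 20. For Acsl1 this was the log2 level of TG4, at 6.25 with A_52_P597618 and 6.09 with A_51_P463452. Fabp5 had WT3 at 7.22 and TG5 at 7.45, both from the array they share. Fabp7 had TG5 at 10.10 and Fabp3 had TG4 at 9.90, each the lowest of its TG mice.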

How the results depend on the processing

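Exchanging the array labels turned every ratio: Fabp7 -0.80, Fabp5 -0.13, Fabp3 -0.46, Acsl1 0.32, Acsl3 0.26, Acsl4 0.033, Acsl5 -0.0031 and Acsl6 0.067, and among the other genes Acbd6 -0.19, Acot8 -0.22, Scp2 0.18, Acbd5 0.41, Hsd17b4 0.14, Etfb -0.31, Acadsb 0.21, Hadhb 0.16, Tecr -0.27, Hacd1 -0.18, Scd2 0.23, Mboat1 0.14, Slc27a1 0.14, Srebf1 0.14, Fabp1 -0.36, Ntsr2 -0.23, Aldh1l1 -0.23, Aqp4 -0.30, Mbp 0.51, Tnc -0.12, Gfap 0.15, Gjb6 0.21, Fgfr3 0.16, Cnp -0.24, Cldn11 -0.17, Cldn5 0.25, Slco1a4 0.20, P2ry12 0.29, Itgam 0.15, Tmem119 -0.13 and Calb1 -0.14. Of 3053 probes called, 1335 were left with median centring, 1769 with 1 mean per WT mouse and 1203 at an FDR of 0.05, where pathway probes numbered 10. In single channels with no replicate block the counts were 652 in all and 1 in the pathway lists, and with the array as a block 6795, 36 and 5 member probes, with Acsl1 at -0.32 and Acsl3 at -0.26 then past the FDR. Acsl3 also passed with 1 mean per WT mouse and with present probes alone, and Fabp5 (0.13) with 1 mean per TG mouse. Leaving out single arrays or mice gave 282 to 3404 probes in all, 0 to 19 pathway probes, 1 to 3 member probes and Fabp3 ratios of 0.39 to 0.54. It gave Acsl5 -0.054 to 0.038, Acsl4 -0.055 to 0.0051 and Acsl6 -0.12 to 0.0074. Acsl5 was -0.0047 after scaling between arrays, -0.0043 with the scanner ratio and -0.0048 in the robust fit, and the scanner ratio gave larger values for Acsl1 (-0.59), Fabp5 (0.26), Acsl6 (-0.15), Acsl4 (-0.067), Mboat1 (-0.30), Tnc (0.27) and Fabp1 (1.06, and 0.098 in the robust fit). Acsl6 was 0.025 with A_51_P380699 alone. With median centring 4 member probes had a dye effect. With log2 channels centred on their medians, 1 member probe did not overlap between genotypes. The shares over all probes were not computed for these 2 counts, so nothing is read from them. The causes were not tested. Scan day could not be a block, since all arrays were scanned on 1 day, and the ABI alternatives were not run.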
